A study of Homo sapiens with 4 samples.

Results

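The genes described here encode ATP-dependent chromatin remodelers and their partner subunits: 45 genes, chosen by name, of the 60675 genes counted in each library. They cover the SWI/SNF family (BAF, PBAF and ncBAF complexes, 22 genes), ISWI and NURF (3 genes), CHD proteins outside NuRD (6 genes), the NuRD complex (9 genes), and INO80, SRCAP and EP400 with the shared RUVBL proteins (5 genes). Membership did not depend on expression. RNA-seq had been carried out on the human line LNCaP, which came from a lymph node metastasis of prostate cancer and responds to androgen. The cells were kept in medium with hormone-depleted serum, dialyzed or charcoal-stripped, and all 4 cultures received 1 nM R1881, a synthetic androgen, dissolved in ethanol, for 72 h. In 2 cultures the vehicle DMSO was added, and in the other 2 cultures 50 µM CPI-455, an inhibitor of the KDM5 histone demethylases. The comparison is thus androgen with and without inhibitor in a single cell line, with no androgen-free culture and no inhibitor-only culture among these libraries. The methods call the replicates biological. Whether they share a passage or a day is not given in the sources used here, so each p-value measures the spread between these samples.

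Chromatin remodelers use ATP to slide, evict or exchange nucleosomes, and so set which stretches of DNA are open to transcription factors. SWI/SNF complexes mainly open enhancers and promoters, ISWI complexes space nucleosomes, NuRD joins a CHD motor to histone deacetylases, and INO80, SRCAP and EP400 handle the histone variant H2A.Z. In prostate cells, androgen-driven enhancers depend on SWI/SNF to stay open, and CHD1 is a gene recurrently deleted in prostate cancer. KDM5 enzymes remove methyl groups from lysine 4 of histone H3, a promoter mark that the chromodomains of CHD1 and a PHD finger of BPTF bind.

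The vehicle libraries held 19623553 and 20690819 counted fragments and the CPI-455 libraries 9522920 and 5401588, so that 1 count was worth 0.0483 to 0.0510 CPM (counts per 1000000 counted fragments, before TMM scaling) in the former and 0.105 to 0.185 CPM in the latter. The long non-coding RNA MALAT1 took 0.0884 to 0.114% of the counts with vehicle and 4.95 to 6.49% with CPI-455, and mitochondrially encoded genes took 1.91 to 2.43% and 0.967 to 1.24%. Of the luminal prostate markers, KLK3, FOLH1, HOXB13 and KRT8 fell at least 2-fold with CPI-455, KLK3 from 404 and 357 CPM to 107 and 136 CPM. TMPRSS2 and KRT18 fell by 0.66 and 0.43 on the log2 scale, EPCAM did not pass the test, and KLK2 rose from 84.2 and 64.4 CPM to 108 and 111 CPM. Of the markers of other cell types, basal KRT5 was at 0 in every library, leukocyte PTPRC and CD68, endothelial PECAM1 and fibroblast DCN were below 1 CPM in each, and basal KRT14 and TP63 and endothelial VWF reached at most 1.24, 1.19 and 1.51 CPM. Fibroblast COL1A1 was called higher, from 4.97 and 4.03 CPM to 10.1 and 7.73 CPM, and vimentin (VIM), which carcinoma lines can express, went from 651 and 737 CPM to 1337 and 1520 CPM. The part of these shifts in the values of the remodeler genes was not tested. In bulk RNA, fewer cells of one kind and less RNA per cell cannot be told apart.

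All 45 genes had enough counts to be tested, and the lowest count of any of them in any library was 99. They were well expressed: 44 of 45 had a mean of at least 10 TPM (the same per kilobase of exon, rescaled to equal totals) in the vehicle libraries, with a median of 66.7 TPM against 24.9 TPM for the 13813 protein-coding genes tested. Levels between genes are given in TPM within the vehicle libraries, and levels between libraries in CPM scaled by TMM. A fold change is CPI-455 over vehicle. A gene passed the test when its FDR (Benjamini-Hochberg, over all 17600 genes tested) was below 0.05 in the quasi-likelihood test of edgeR, and it was called when the change was also at least 2-fold.

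With CPI-455, 7 of the 45 remodeler genes were called lower (15.6%) and 4 were called higher (8.89%). Across all genes tested, 21.3% were called lower and 21.0% higher, and across protein-coding genes 24.4% and 15.6%, so in either direction a smaller share of the remodeler genes was called than of the background. In both directions together this was 24.4% of the remodeler genes, beside 42.4% of all genes and 40.0% of protein-coding genes. The lower genes were CHD8, SMARCA5, GATAD2A, BCL7B, SS18, BCL7A and PBRM1. The higher genes were SMARCD3, CHD2, BRD9 and MTA1. With no minimum fold, 22 of 45 passed the test as lower and 10 as higher (48.9% and 22.2%, beside 32.8% and 29.8% of all genes and 38.7% and 26.3% of protein-coding genes). Together these were 71.1% of the remodeler genes, beside 62.6% and 65.1%, and 13 genes did not pass. The median log2 fold change of the 45 was -0.20, beside -0.21 for protein-coding genes and -0.04 for all genes. Scaling alone moved the median of all genes to 0.14 with upper-quartile factors and to -0.23 with library totals, and that of the remodeler genes to -0.03 and -0.39, so small changes are relative to the scaling used. The CPM of the 2 groups did not overlap for 37 of the 45 genes, where 81.9% of all genes tested did not overlap, which is close to the members' own share.

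**Figure D1:**
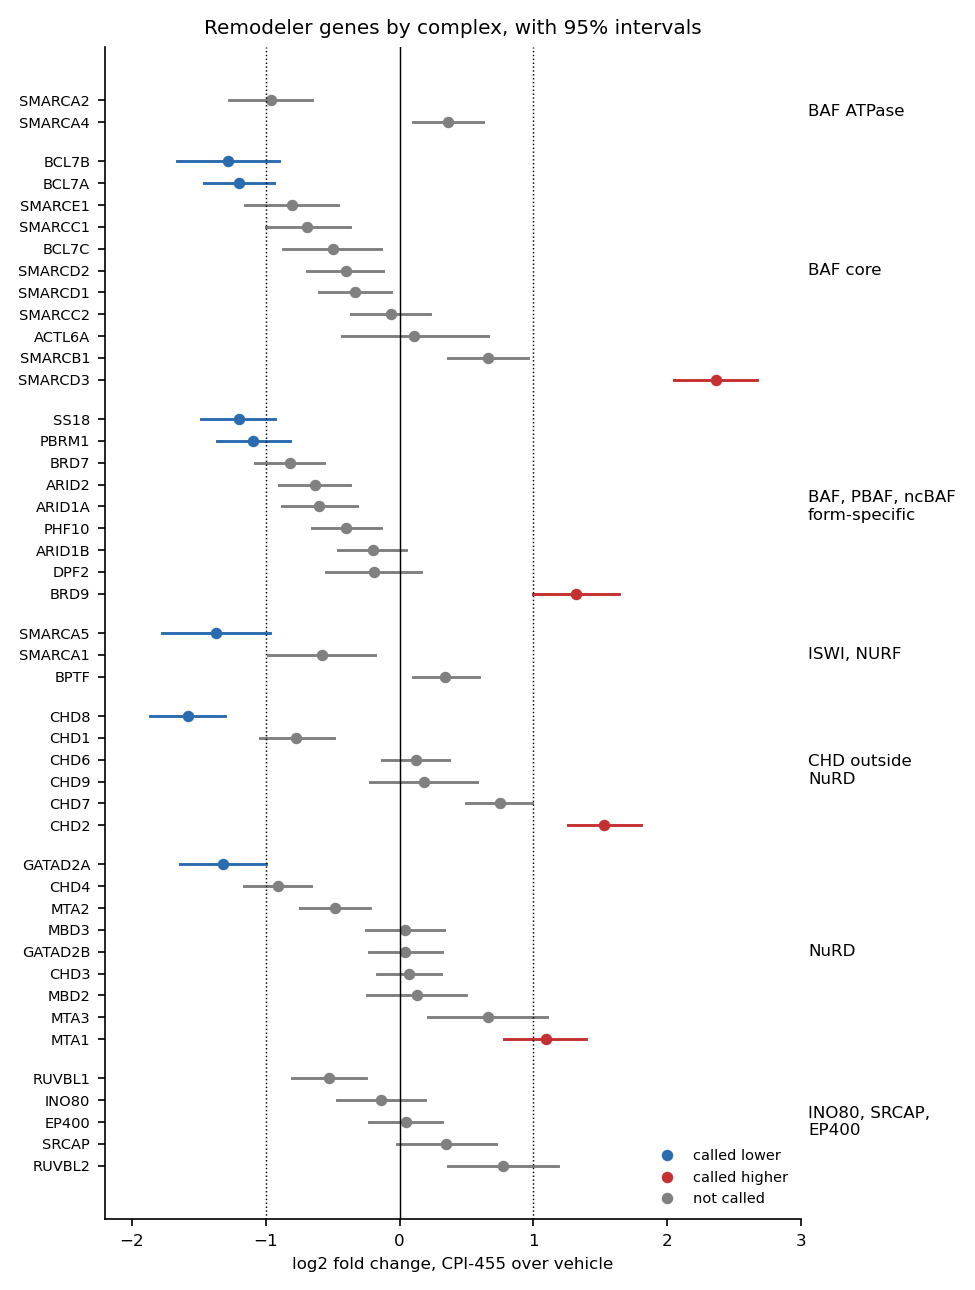
Log2 fold change, CPI-455 over vehicle, of the 45 remodeler genes, grouped by complex; points are edgeR estimates, bars their 95% intervals, and dotted lines mark 2-fold. Within each complex the genes lie on both sides of 0, from CHD8 at -1.58 to SMARCD3 at 2.36.

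**Figure D2:**
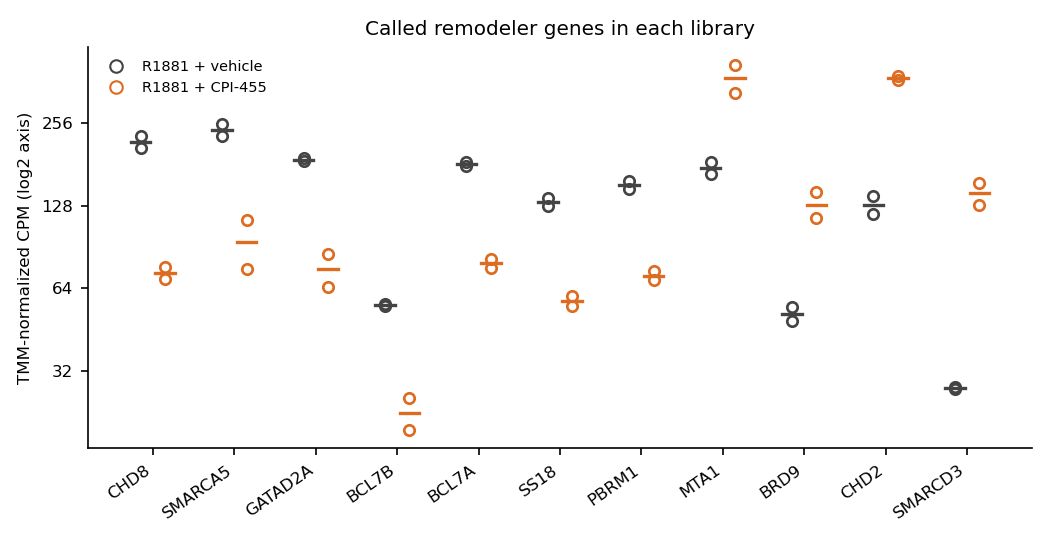
TMM-normalized CPM (log2 axis) of the 11 called remodeler genes in each of the 4 libraries; open circles are single libraries and short bars the means of 2. The vehicle and CPI-455 libraries do not overlap for any of the 11 genes, and on this axis the spread is widest for SMARCA5 with CPI-455 (75.1 and 113 CPM).

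Promoter sequence was examined because called genes moved in opposite directions. RefSeq start sites on GRCh38.p14 were matched for 38 of the 45 genes, all 11 called genes among them, and the window ran from 250 bases before to 50 bases after the start. For each remodeler gene only the first listed start site was used. For some genes this start lay inside the counted gene and not at its 5′ end, as for BCL7A and for CHD8, whose counted exons reach 21456126. Other start sites of these genes could give other matches. The windows were rich in CpG, with a median of 31 CpG in 300 bases beside 26 for 11155 tested protein-coding genes and 14 for 35116 promoters in all. A GC box (GGGCGG, or CCGCCC on the other strand) lay in 31 of 38 windows (81.6%), beside 70.1% of tested protein-coding genes and 45% of all promoters, and in 6 of the 7 genes called lower and 3 of the 4 called higher. The exception among the higher genes was CHD2, whose window had 3 CpG and none of the 4 motifs searched. A CCAAT box (CCAAT, or ATTGG on the other strand) lay in 14 of 38 windows (36.8%), close to the 36.4% of tested protein-coding genes and 34.6% of all promoters. It was found in 5 of the 7 genes called lower and in 0 of the 4 called higher. Those classes hold few genes and were set by the fold changes, and a link between motif and direction was not tested. The ETS core (CCGGAA or TTCCGG) was in 31.6% of windows beside 28.6% and 17.2%, and the TATA box (TATAAA or TTTATA) in 2.63% beside 5.68% and 11.5% (no motif contains another). A match describes the letters only. The GC boxes nearest the start of the higher genes MTA1 and BRD9, then the CCAAT boxes of 4 of the lower genes, are shown 5′ to 3′ on the gene's strand with 12 bases on each side and the box in capitals.
MTA1, chr14:105419826-105419855, plus strand: cctcttcctctcCCGCCCgcgccgcggccc
BRD9, chr5:892558-892587, minus strand: gtgacgcgcggcGGGCGGggtcccgggcac
CHD8, chr14:21437290-21437318, minus strand: agtgcgcttcagCCAATgatggcgcgggg
BCL7B, chr7:73557293-73557321, minus strand: cgccggccgcggCCAATcagcggtcctcc
GATAD2A, chr19:19385724-19385752, plus strand: tggctggacctcATTGGcttgtggcgcct
SS18, chr18:26091309-26091337, minus strand: cagggttactttCCAATtgttaggcacga
The CCAAT boxes of CHD8 and BCL7B lay 31 and 73 bases before the start, and those of SS18 and GATAD2A 106 and 107 bases before it.

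SWI/SNF complexes carry 1 of 2 motor subunits, SMARCA4 (BRG1) or SMARCA2 (BRM), and these moved in opposite directions without reaching the call. SMARCA2 (chromosome 9, 2015219 to 2193624) was at 66.0 and 66.3 CPM with vehicle and at 33.1 and 35.1 CPM with CPI-455. It fell by 0.96 ± 0.14 on the log2 scale (SE, edgeR adjusted p = 2.53e-04), just short of 2-fold, and was at -1.0 without replicate 2 of CPI-455. SMARCA4 (chromosome 19, 10961001 to 11065395) was at 232 and 260 CPM with vehicle and at 334 and 298 CPM with CPI-455. Its log2 fold change was 0.36 ± 0.12 (edgeR adjusted p = 0.0223), so its rise was less firm than the fall of SMARCA2. SMARCA4 no longer passed the test with library totals (0.17) or with no expression filter (0.21). Nor did SMARCA4 pass without replicate 1 of vehicle (0.3) or without replicate 2 of vehicle (0.46). With 1 library left out its log2 value ran from 0.28 to 0.46. Neither gene's groups overlapped. Per kilobase of exon, SMARCA4 stood at 3.10 and 3.46 times SMARCA2 in the vehicle libraries and at 8.92 and 7.50 times it in the CPI-455 libraries. Such a ratio of 2 genes within a library does not depend on how libraries are scaled to each other. It still carries each library's trends with exon length and GC content, and no ratio was computed with those taken out. With those trends taken out, the log2 fold change was 0.38 for SMARCA4 and -0.60 for SMARCA2. As counted, the SMARCA4 to SMARCA2 ratio differed by 1.32 on the log2 scale (p = 0.333, exact permutation test, two-sided). The smallest p that 2 against 2 libraries allow is 0.333, and p was 0.381 after adjustment over the 16 ratios computed.

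Of 11 core subunits, which most SWI/SNF forms share, 7 passed the test as lower and 2 as higher, at a median of -0.40 on the log2 scale. These are 63.6% and 18.2%, beside 38.7% and 26.3% of protein-coding genes and 32.8% and 29.8% of all genes. SMARCD1, SMARCD2 and BCL7C no longer passed with upper-quartile factors, or with the trend of exon length taken out of each library. With trends of exon length and GC content both taken out, only SMARCD1 of the core no longer passed, and the median was -0.31. The 3 BCL7 proteins, small subunits of the motor module, all fell. BCL7A was at 178 and 185 CPM with vehicle and 81.8 and 75.9 CPM with CPI-455 (log2 fold change -1.20 ± 0.12, edgeR adjusted p = 2.14e-05). BCL7B was at 55.9 and 55.0 CPM with vehicle and 25.5 and 19.6 CPM with CPI-455 (-1.28 ± 0.17, edgeR adjusted p = 1.47e-04). BCL7C fell less, by 0.50 ± 0.16, from 51.9 and 49.1 CPM to 39.7 and 30.9 CPM, and 13.2% of its exon bases are shared with other genes, where fragments were not counted. The BCL7B to BCL7C ratio went from 1.34 and 1.39 to 0.798 and 0.788 (log2 difference -0.78, exact permutation p = 0.333).

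The SMARCD subunits, alternative members that link the core to transcription factors, went apart. SMARCD3 (BAF60C), known for its part in muscle and heart, had the largest change of the 45 genes. It was at 27.6 and 27.9 CPM with vehicle and at 155 and 129 CPM with CPI-455, 5.13-fold higher (log2 fold change 2.36 ± 0.14, edgeR adjusted p = 1.48e-06). Both CPI-455 libraries were far above both vehicle libraries, and SMARCD3 was called in all 16 alternative settings fitted, with log2 values from 2.17 to 2.60. SMARCD1 and SMARCD2 fell by 0.33 ± 0.12 and 0.40 ± 0.13, and their ratio overlapped between the groups, at 0.585 and 0.633 in the vehicle libraries and 0.607 and 0.687 in the CPI-455 libraries. In the vehicle libraries SMARCD3 was the lowest of the 3, with a mean of 22.7 TPM beside 94.7 for SMARCD1 and 155 for SMARCD2. SMARCD3 shares 13.8% of its exon bases with genes on the opposite strand, the largest stretch with an antisense RNA of 574 shared bases, and strand was not used in the counting.

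Among the scaffold subunits, SMARCC1 fell from 229 and 263 CPM to 136 and 171 CPM (log2 fold change -0.69 ± 0.14, edgeR adjusted p = 0.00213). Its alternative SMARCC2 was at 151 and 149 CPM with vehicle and 159 and 127 CPM with CPI-455, overlapping groups with an interval from -0.36 to 0.23. SMARCE1, a DNA-binding subunit absent from ncBAF, fell by 0.80 ± 0.15, and was at -1.03 without replicate 2 of CPI-455. SMARCB1, the tumor suppressor lost in rhabdoid tumors, rose from 75.3 and 79.0 CPM to 111 and 134 CPM (0.66 ± 0.13, edgeR adjusted p = 0.00188). The actin-related subunit ACTL6A was at 26.0 and 26.2 CPM with vehicle and at 20.9 and 36.7 CPM with CPI-455. The 2 inhibitor libraries thus lay on either side of the vehicle libraries, and the interval for ACTL6A was wide, from -0.43 to 0.66. Without replicate 2 of CPI-455 its log2 value was -0.32, and without replicate 1 it was 0.49.

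Of the 9 subunits that tell the BAF, PBAF and ncBAF forms apart, 6 passed the test as lower and 1 as higher, with a median of -0.60. Those are 66.7% and 11.1%, beside 38.7% and 26.3% of protein-coding genes and 32.8% and 29.8% of all genes. With trends of exon length and GC content taken out of each library, the median of the 9 was -0.14. BRD9, the bromodomain protein that defines ncBAF, was the 1 that passed as higher. It was at 54.7 and 48.7 CPM with vehicle and at 143 and 115 CPM with CPI-455 (log2 fold change 1.32 ± 0.14, edgeR adjusted p = 4.44e-05). BRD7, the related protein of PBAF, was at 178 and 196 CPM with vehicle and at 105 and 107 CPM with CPI-455 (-0.82 ± 0.12, edgeR adjusted p = 2.21e-04). Per kilobase of exon BRD9 stood at 0.272 and 0.221 of BRD7 with vehicle and at 1.21 and 0.948 with CPI-455, a log2 difference of 2.13 (exact permutation p = 0.333). BRD7 shares 42.4% of its exon bases with other genes, 3593 of them with ADCY7 on the opposite strand, so its level per kilobase is less sure than that of BRD9.

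The other PBAF subunits were also lower. PBRM1 (BAF180), a tumor suppressor of clear cell kidney cancer, was at 147 and 157 CPM with vehicle and at 73.8 and 68.6 CPM with CPI-455 (log2 fold change -1.09 ± 0.12, edgeR adjusted p = 4.48e-05). It was not called with upper-quartile scaling (-0.91). ARID2, the ARID protein of PBAF, fell from 120 CPM in both vehicle libraries to 80.1 and 73.8 CPM (-0.63 ± 0.12), and PHF10 fell by 0.40 ± 0.11. Thus all 4 PBAF genes of the list, PBRM1, ARID2, BRD7 and PHF10, passed the test as lower with TMM scaling, but once trends with exon length and GC content were taken out of each library only PBRM1 (-0.60) and BRD7 (-0.42) still passed. ARID2 was then at -0.14 (edgeR adjusted p = 0.335) and PHF10 at 0.09. With TMM scaling, 32.8% of all genes and 38.7% of protein-coding genes passed the test as lower.

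Among subunits of canonical BAF, ARID1A fell from 109 and 122 CPM to 73.3 and 79.7 CPM (log2 fold change -0.60 ± 0.13). ARID1A no longer passed with the trend of exon length taken out or without replicate 2 of vehicle. Its paralog ARID1B, at 175 and 178 CPM with vehicle and 147 and 160 CPM with CPI-455, did not pass the test (interval -0.46 to 0.05). The ARID1A to ARID1B ratio was 1.14 and 1.25 in the vehicle libraries and 0.913 and 0.909 in the CPI-455 libraries, and the PBRM1 to ARID1A ratio 1.29 and 1.23 in the vehicle libraries and 0.964 and 0.824 in the CPI-455 libraries. DPF2, a PHD finger subunit, had overlapping groups (91.4 and 87.0 CPM, then 89.9 and 64.8 CPM). SS18, present in canonical BAF and ncBAF and best known as a fusion partner in synovial sarcoma, was at 128 and 136 CPM with vehicle and at 55.0 and 59.9 CPM with CPI-455 (-1.20 ± 0.12, edgeR adjusted p = 3.05e-05). Of the ncBAF genes among the 45, then, BRD9 rose, while SS18, which canonical BAF shares, fell.

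**Figure D3:**
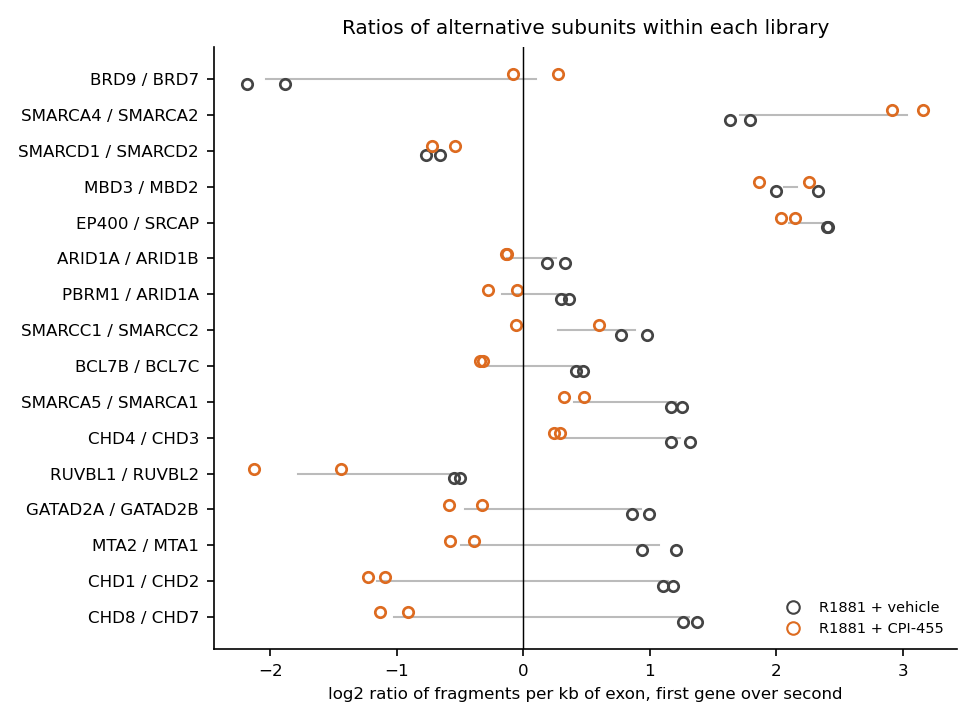
Log2 ratio of fragments per kilobase of exon for 16 pairs of alternative subunits, computed within each of the 4 libraries; grey lines join the group means. BRD9 / BRD7 moved right by 2.13, CHD8 / CHD7 and CHD1 / CHD2 moved left by more than any other pair, and SMARCD1 / SMARCD2 and MBD3 / MBD2 overlapped between the groups.

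The ISWI motors SMARCA5 (SNF2H) and SMARCA1 (SNF2L) both passed the test as lower, SMARCA1 less firmly. SMARCA5 was at 229 and 253 CPM with vehicle and at 75.1 and 113 CPM with CPI-455, 2.58-fold lower (log2 fold change -1.37 ± 0.18, edgeR adjusted p = 1.34e-04). Its CPI-455 libraries differed from each other, but both lay far below both vehicle libraries. SMARCA1 was at 50.1 and 58.7 CPM, then 31.4 and 42.2 CPM (-0.58 ± 0.18, edgeR adjusted p = 0.0175). Its log2 value was -0.37 without replicate 1 of CPI-455, and SMARCA1 no longer passed without replicate 2 of vehicle (-0.44), with upper-quartile scaling (-0.40) or with the length and GC trends taken out (-0.17). The SMARCA5 to SMARCA1 ratio went from 2.38 and 2.24 to 1.25 and 1.39. SMARCA5 shares 13.5% of its exon bases with genes on the opposite strand, 630 of them with SMARCA5-AS1. As strand was not used in the counting, the level of SMARCA5 per kilobase is less sure. BPTF, the large NURF subunit that reads methylated lysine 4 of histone H3, rose from 211 and 232 CPM to 283 and 279 CPM (0.34 ± 0.11, edgeR adjusted p = 0.0213), but it did not pass with library totals (0.15) or without either vehicle library.

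Of the 6 CHD proteins outside NuRD, 2 passed the test as lower, 2 as higher and 2 did not pass it, with a median of 0.15. Each passing share is 33.3%, beside 38.7% and 26.3% of protein-coding genes and 32.8% and 29.8% of all genes. CHD8, a negative regulator of beta-catenin signaling and a known autism gene, had the largest fall of the 45 genes. It was at 207 and 230 CPM with vehicle and at 76.6 and 69.2 CPM with CPI-455, 2.99-fold lower (log2 fold change -1.58 ± 0.12, edgeR adjusted p = 6.29e-06). CHD7, its close relative and the gene of CHARGE syndrome, rose from 150 and 154 CPM to 249 and 262 CPM (0.75 ± 0.11, edgeR adjusted p = 2.65e-04). Per kilobase of exon CHD8 stood at 2.39 and 2.59 times CHD7 with vehicle and at 0.534 and 0.458 with CPI-455, so the order of the 2 genes turned over (log2 difference -2.33, exact permutation p = 0.333).

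CHD1 and CHD2, which form the first CHD subfamily and carry a DNA-binding domain, also moved in opposite directions. CHD1 fell from 178 and 198 CPM to 104 and 118 CPM (log2 fold change -0.77 ± 0.12, edgeR adjusted p = 5.04e-04). CHD1 has the lowest exon GC content of the 45 genes, and with the length and GC trends taken out it was at -0.24 (edgeR adjusted p = 0.0525). CHD2 was at 119 and 139 CPM with vehicle and at 366 and 379 CPM with CPI-455, 2.89-fold higher (1.53 ± 0.12, edgeR adjusted p = 6.21e-06). The CHD1 to CHD2 ratio was 2.26 and 2.15 in the vehicle libraries and 0.427 and 0.469 in the CPI-455 libraries, a log2 difference of -2.30 (exact permutation p = 0.333). CHD2 shares 11.0% of its exon bases, 1727 of them with an unnamed gene on the same strand. CHD6 was at 113 CPM in both vehicle libraries and at 124 and 122 CPM with CPI-455 (interval -0.13 to 0.37), and CHD9 overlapped between the groups (68.1 and 78.2 CPM, then 68.1 and 99.1 CPM).

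In NuRD, which couples nucleosome remodeling to histone deacetylation, 3 genes passed the test as lower, 2 as higher and 4 did not pass it, with a median of 0.04. The passing shares are 33.3% and 22.2%, beside 38.7% and 26.3% of protein-coding genes and 32.8% and 29.8% of all genes. The motor CHD4 was at 275 and 294 CPM with vehicle and at 155 and 149 CPM with CPI-455 (log2 fold change -0.91 ± 0.11, edgeR adjusted p = 8.64e-05). Its alternative CHD3 was at 160 and 154 CPM, then 166 and 164 CPM (0.07 ± 0.11, interval -0.17 to 0.31). The CHD4 to CHD3 ratio went from 2.25 and 2.49 to 1.22 and 1.18.

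GATAD2A, which bridges the methyl-binding protein to the motor, was at 186 and 190 CPM with vehicle and at 85.1 and 64.8 CPM with CPI-455, 2.49-fold lower (log2 fold change -1.32 ± 0.14, edgeR adjusted p = 4.33e-05). Its paralog GATAD2B overlapped between the groups (104 and 117 CPM, then 119 and 108 CPM, interval -0.23 to 0.32), and the ratio of the 2 went from 1.99 and 1.81 to 0.797 and 0.666. The MTA scaffold subunits, which recruit the deacetylases, also moved apart. MTA1 rose from 167 and 184 CPM to 415 and 329 CPM (1.09 ± 0.13, edgeR adjusted p = 1.00e-04), while MTA2 fell from 234 and 215 CPM to 169 and 152 CPM (-0.48 ± 0.12). MTA2 no longer passed without replicate 1 of vehicle. MTA1 was no longer called without replicate 1 of CPI-455 (0.91) or with library totals (0.90). Its ratio to MTA2, as MTA2 over MTA1, was 2.31 and 1.92 in the vehicle libraries and 0.670 and 0.761 in the CPI-455 libraries.

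MTA3 was at 47.2 and 45.2 CPM with vehicle and at 57.4 and 89.8 CPM with CPI-455, libraries that differed from each other by more than the nearer of them differed from vehicle (log2 fold change 0.66 ± 0.20, edgeR adjusted p = 0.0157). Without replicate 2 of CPI-455 the log2 value of MTA3 was 0.31, and without replicate 1 it was 0.96. The methyl-CpG-binding subunits MBD2 and MBD3 overlapped between the groups, with intervals from -0.24 to 0.50 and from -0.25 to 0.33. Thus NuRD subunits of the same kind did not move together. CHD4, GATAD2A and MTA2, the most expressed MTA scaffold in vehicle (226 TPM beside 107 for MTA1 and 18.6 for MTA3), were lower with CPI-455. MTA1 and MTA3 were higher, and CHD3, GATAD2B and the MBD subunits did not pass the test.

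None of the 5 genes of the INO80, SRCAP and EP400 group was called, and 3 of them, the motors, did not pass the test. Of all genes tested, 42.4% were called and 62.6% passed. INO80 was at 42.7 and 45.9 CPM, then 38.5 and 42.2 CPM (log2 fold change -0.14 ± 0.15). EP400 was at 169 and 171 CPM with vehicle and 190 and 160 CPM with CPI-455 (0.05 ± 0.12). SRCAP was at 23.2 and 23.8 CPM, then 31.3 and 28.4 CPM, groups that did not overlap, but it did not pass the test (0.35 ± 0.17, edgeR adjusted p = 0.0926). At 7.31 TPM SRCAP was the lowest of the 45 in the vehicle libraries, and 76.0% of its exon bases are shared with other genes, 10136 of them with one on the same strand, so fragments there were not counted and its level is uncertain.

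RUVBL1 and RUVBL2, AAA-type ATPases that build a joint ring in these complexes, moved in opposite directions. RUVBL1 fell from 113 and 126 CPM to 80.4 and 85.7 CPM (log2 fold change -0.53 ± 0.12, edgeR adjusted p = 0.00448). RUVBL1 no longer passed with the trend of exon length taken out or without replicate 2 of vehicle. RUVBL2 rose from 85.1 and 98.6 CPM to 187 and 124 CPM (0.77 ± 0.18, edgeR adjusted p = 0.00497). The log2 value of RUVBL2 was 1.03 without replicate 2 of CPI-455 and 0.43 without replicate 1. The RUVBL1 to RUVBL2 ratio went from 0.707 and 0.682 to 0.229 and 0.369.

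For 14 of the 16 ratios the exact permutation p was 0.333, the smallest possible, and for SMARCD1 to SMARCD2 and MBD3 to MBD2 it was 0.667. With this test 4 libraries cannot place any ratio past a threshold of 0.05, and the size of the difference beside the spread within each group is what the libraries give. Leaving out any 1 library kept the difference between 1.95 and 2.30 for BRD9 to BRD7, between -2.44 and -2.22 for CHD8 to CHD7 and between -2.37 and -2.23 for CHD1 to CHD2. For SMARCC1 to SMARCC2 it ranged from -0.94 to -0.28, the low end without replicate 2 of CPI-455 and the high end without replicate 1.

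The remaining subunits of the same complexes and several other SNF2-type remodelers, made a list of 55 genes, all tested. Of these, 10 were called lower (18.2%) and 6 higher (10.9%), also below the background shares, and the median was 0.09. By size of change, the called genes were led by EPC2, YY1 and BAZ1B on the lower side and by ATRX, HMGXB4 and KAT5 on the higher side. BAZ1B, a partner of SMARCA5 in the WICH complex, fell by 1.68 ± 0.13, from a mean of 577 CPM to 165 and 197 CPM. YY1, a DNA-binding protein of INO80, fell by 1.77 ± 0.12, and EPC2, a subunit of the EP400 complex, by 1.83 ± 0.20. ATRX, which deposits histone H3.3 with DAXX, rose from a mean of 214 CPM to 637 and 860 CPM (1.81 ± 0.15). HMGXB4, linked to NURF, and KAT5, the acetyltransferase of the EP400 complex, rose by 1.36 ± 0.12 and 1.14 ± 0.18.

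The remodeler genes are long and span a wide range of base composition. Their median exon length was 8113 bases, beside 5068 for protein-coding genes tested, and exon GC content ran from 36.7% (CHD1) to 64.8% (MTA1), with a median of 49.8% beside 48.6%. Over the 45 genes the log2 fold change correlated with GC content with r = 0.29 (Spearman rho 0.26) and with log2 exon length with r = 0.10 (rho 0.15), as a description over genes of the same 4 libraries. Over protein-coding genes tested these values were 0.17 and 0.19 for GC content and -0.12 and -0.14 for length. The 22 remodeler genes with lower GC content had a median of -0.49, with 12 passing the test as lower and 4 as higher, and the 23 with higher GC content a median of -0.19, with 10 and 6.

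Taking out of each library its smooth trends with exon length and GC content left 4 genes called lower and 4 called higher, and it moved the median of the 45 to 0.00. CHD8, GATAD2A, BCL7B and BCL7A remained called lower, with log2 values of -1.25, -1.24, -1.38 and -1.04. SMARCA5, SS18 and PBRM1, with exon GC contents of 38.4%, 43.1% and 42.2%, had -0.84, -0.77 and -0.60 and were then under 2-fold, still with an FDR below 0.05. The 4 genes called higher remained so, CHD2 at 1.86, SMARCD3 at 2.33, BRD9 at 1.44 and MTA1 at 1.09. With no minimum fold, 17 genes then passed the test as lower and 14 as higher, in place of 22 and 10. SMARCA1, SMARCD1 (-0.16), ARID2, PHF10 and CHD1 no longer passed, and CHD6 (0.44), CHD9 (0.55), MBD2 (0.50) and GATAD2B (0.40) newly passed as higher. Of genes that still passed, SMARCC1 and SMARCE1 were both at -0.31, SMARCB1 at 0.38 and BPTF at 0.69.

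**Figure D4:**
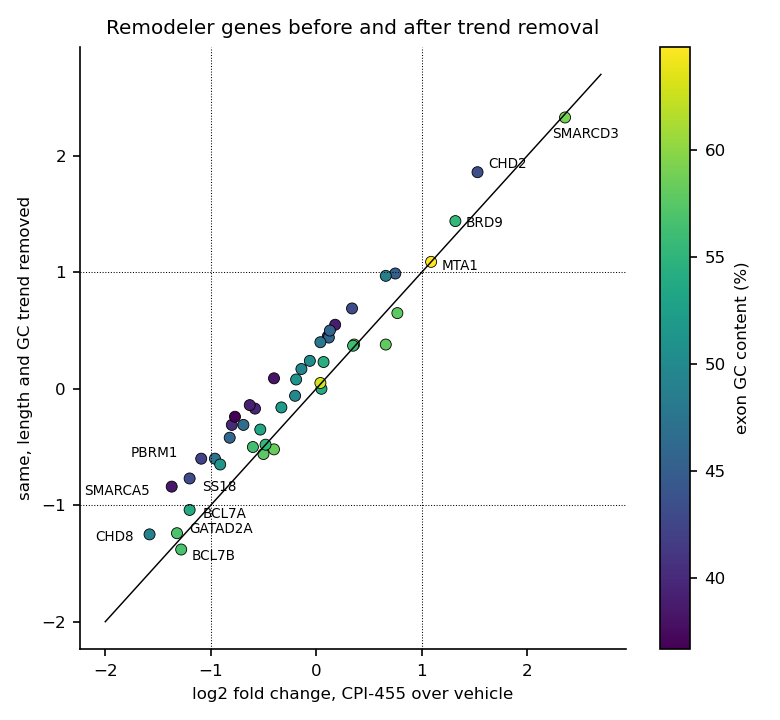
Log2 fold change of the 45 remodeler genes as fitted (horizontal axis) and after trends with exon length and GC content were taken out of each library (vertical axis); colour is exon GC content in percent, the diagonal marks equal values and dotted lines 2-fold. Genes of low GC content lie above the diagonal, and SMARCA5, SS18 and PBRM1 come to lie inside the 2-fold lines.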

How the data were processed

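RNA-seq of 4 LNCaP cultures was analysed, 2 with R1881 and vehicle and 2 with R1881 and CPI-455. Groups and replicate numbers were taken from the sample labels. The labels and the methods differ on the final DMSO concentration, and neither says how RNA was selected or whether libraries were stranded.

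The authors used Trim Galore for trimming, STAR for alignment to GRCh38 and featureCounts 1.5.0-p1 for counting on the exons of Ensembl release 83. They deposited unnormalized fragment counts for each gene and library. Per the file headers, counting ignored strand and dropped fragments that aligned to several places or lay on several genes, which lowers genes that overlap others. Symbols were matched for 56558 of 60675 genes and exon GC content was taken from GRCh38.

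Genes were fitted together in edgeR 4.0.16 under R 4.3.3 after filterByExpr (minimum count 10), with TMM factors of 1.08, 1.06, 0.936 and 0.936, no covariates and Benjamini-Hochberg adjustment; the common dispersion gave a biological coefficient of variation of 0.126. The code was tested on simulated data with known changes. Intervals of log2 fold changes come from the edgeR fit, at a confidence level of 95%. Ratios of 2 genes were tested by exact permutation of the 4 libraries.

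Alternatives were other size factors, upper-quartile and library-total scaling, scaling without mitochondrial genes and MALAT1, 2 other filters, DESeq2 1.42.0, the likelihood-ratio test, a replicate block, removal of a trend on exon length with or without GC content (mgcv 1.9.3), each library left out, and 2 other thresholds. All 45 members are named, and of 55 other subunits the 3 with the largest called change on either side. The members, lists and tests were chosen with earlier results of these data known. Some genes and sequences are not reported here.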

Additional observations from a re-analysis of the deposited data

How the results depend on the processing

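With 4 libraries, 2 of them of low depth, small changes cannot be placed with confidence, and the scaling decides the side of 0 for genes near it. Of 720 pairs of a remodeler gene and an alternative setting (45 genes, 16 settings), 655 kept direction and call, 14 lost the call, 10 gained it and 41 changed direction. The 20 genes with no such change include CHD8, BCL7B, SMARCD3, CHD2 and BRD9. A gene that was not called can lose the test and still count here as unchanged. SMARCA4, SMARCA1 and SMARCD1 kept direction and call in all 16 settings, but each failed the test in several of them. The cause of the other changes was not tested.

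The 7 remodeler genes called lower became 4 with the length and GC trend removed, 3 with the length trend removed, 3 with glmTreat against 2-fold and 22 with no minimum fold, and the 4 called higher became 10 with no minimum fold. Leaving out 1 library gave 7 to 9 lower and 3 to 5 higher. With no minimum fold, the 22 lower and 10 higher became 17 and 14 with the length and GC trend removed, 14 and 15 with the length trend removed, 17 and 12 with upper-quartile factors, 23 and 7 with library totals, 17 and 8 without vehicle replicate 1 and 15 and 8 without vehicle replicate 2. SMARCD1, SMARCD2, BCL7C and PHF10 passed under neither of those 2 fits nor with upper-quartile factors. Of all genes, 5767 passed as lower with no minimum fold, and glmTreat called 2350 lower and 2455 higher. The other subunits called lower numbered 5 with the length and GC trend removed, 18 with no minimum fold and 6 with glmTreat, and those called higher 10 with upper-quartile factors, 2 with library totals, 2 with no filter, 11 with either trend removed, 20 with no minimum fold and 2 with glmTreat.

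Calls were lost for SMARCA5 (-0.84), SS18 (-0.77) and PBRM1 (-0.60) with the length and GC trend removed, for SS18 (-0.91), PBRM1 (-0.72), BCL7A (-0.89) and GATAD2A (-0.98) with the length trend removed, and for MTA1 with library totals (0.90) or no filter (0.93). Calls were gained for SMARCA2 (-1.15), CHD4 (-1.10) and BRD7 (-1.01) with library totals, for SMARCA2 (-1.0) with DESeq2 and for MTA3 (1.01) with the length trend removed.

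The median log2 fold change of all remodeler genes was -0.03 with upper-quartile factors, -0.39 with library totals, -0.36 with no filter, 0.00 with the length and GC trend removed and 0.02 with the length trend removed, and -0.37 to -0.20 with 1 library left out. In the same order of these 5 settings, the BAF ATPases had -0.12, -0.49, -0.45, -0.11 and 0.06, the form-specific subunits -0.42, -0.79, -0.75, -0.14 and -0.23, the CHD proteins outside NuRD 0.33, -0.04, 0.00, 0.49 and 0.42 (0.02 to 0.28 with 1 library left out), and NuRD 0.22, -0.15, -0.11, 0.23 and 0.40. The BAF core had -0.23, -0.59 and -0.56 in the first 3 settings, and the INO80, SRCAP and EP400 group 0.22 with upper-quartile factors, -0.14 with library totals and 0.22 with the length trend removed.

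The replicate numbers came only from the labels, and the deviations of same-numbered libraries correlated at 0.0400 over genes, so the block was not the design used. With the replicate block the counts were 7 lower and 4 higher. With the block and the length and GC trend removed they were 4 and 4, with 5 and 11 of the other subunits and medians of -0.01 for all remodeler genes, -0.11 for the BAF ATPases, -0.15 for the form-specific subunits, 0.49 for the CHD proteins outside NuRD and 0.23 for NuRD. There the log2 values of SMARCC2 (0.23), DPF2 (0.05), PHF10 (0.08), INO80 (0.17) and EP400 (-0.01) changed direction.

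Among genes that changed direction, only PHF10 had passed the test. With the length and GC trend removed SMARCC2 was at 0.24, DPF2 at 0.08, PHF10 at 0.09, INO80 at 0.17 and EP400 at 0.00 (just below 0), and with the length trend removed SMARCC2 was at 0.30, ARID1B at 0.02, DPF2 at 0.15 and INO80 at 0.19. With upper-quartile factors SMARCC2 was at 0.11 and INO80 at 0.04. With library totals ACTL6A was at -0.08, CHD3 at -0.12, CHD6 at -0.06, CHD9 at -0.01, EP400 at -0.14, MBD2 at -0.06, MBD3 at -0.15 and GATAD2B at -0.15, and with no filter ACTL6A was at -0.04, CHD3 at -0.08, CHD6 at -0.03, EP400 at -0.11, MBD2 at -0.03, MBD3 at -0.11 and GATAD2B at -0.11. DESeq2 put MBD3 and GATAD2B at 0.00. Over the fits with 1 library left out, SMARCC2 ran from -0.24 to 0.08, DPF2 from -0.46 to 0.01, ACTL6A from -0.32 to 0.49, CHD9 from -0.10 to 0.44, EP400 from -0.09 to 0.16, MBD3 from -0.12 to 0.19 and GATAD2B from -0.03 to 0.14.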
